A study of Homo sapiens with 6 samples.

Results

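Histone acetylation genes were examined in K562, an established human line grown from a chronic myeloid leukaemia that carries the BCR-ABL1 fusion. The set held 51 genes chosen by name: enzymes that add acetyl groups to histones (writers), enzymes that remove them (erasers), proteins that bind acetylated lysines through a bromodomain (readers), and subunits of the complexes in which these work. A gene was measured where the platform annotation gave a probe set its symbol alone, and where it had several, the brightest on average represented it. That left 49 of the 51, among 19775 genes measured in all, while NCOA3 and NCOR1 were not analysed here. RNA came from 3 K562 samples exposed for 12 h to calactin at a labelled dose of 0.15 mM, and from 3 untreated K562 samples of the same 12 h, each hybridised to its own 1-colour array. The unit of the dose rests on the labels alone and may be mistyped, since cardenolides are usually given to cells at far lower concentrations. Calactin is a cardenolide, a class of plant steroids that inhibit the sodium pump. All cells grew in the same serum-supplemented medium, the line is a single cancer line, and the labels call the samples biological replicates without saying whether they were separate cultures, so p-values measure the spread between these samples.

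Acetylation neutralises the positive charge of lysines in histone tails, which loosens chromatin and creates binding sites for bromodomains. Acetyltransferases and deacetylases seldom act alone: they sit in multi-subunit assemblies such as SAGA, TIP60, MOZ and HBO1 on the writing side and SIN3, NuRD and NCoR on the erasing side. In blood cells these enzymes are widely known as coactivators and corepressors, and MOZ and CBP are partners in leukaemia fusions. The title of the series names histone modification as one of its themes, and the comparison asks which transcripts of this machinery differed between exposed and untreated cells.

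The median signal of the calactin arrays was 31.2 to 32.1 intensity units, and that of the untreated ones 33.1 to 34.4. All 10 measured K562-type markers lay above the median signal of all genes. Of other markers, 1 of 5 lymphocyte, 1 of 5 monocyte and granulocyte, and 5 of 7 epithelial and fibroblast genes did so. Lymphocyte markers summed to 1789 to 1956 with calactin, against 2284 to 2677 untreated, and epithelial and fibroblast markers to 9619 to 10978 with calactin, against 13235 to 15873 untreated. Monocyte and granulocyte markers summed to 129.5 to 182.8 with calactin and 110.8 to 182.9 untreated, and K562-type markers to 41380 to 51325 with calactin and 48458 to 53775 untreated. CD3D, CSF1R and KRT18 had the highest signal in the 3 lists of other cells. The part of these in the results was not tested. The poly-A control spikes averaged 9.83, 10.18 and 6.72 (log2) with calactin and 10.36, 10.90 and 7.06 in untreated arrays, so replicate 3 stood apart in both groups. Replicates 1 and 2 alone were therefore fitted as well, and results that end there are named with the genes.

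Histone acetylation genes moved in both directions. On the log2(intensity + 16) scale, limma at an adjusted p under 0.05 called 8 of the 49 higher and 12 lower with calactin, and 29 were not called, so 20 were called in all. In bulk RNA, fewer cells of a type and less RNA per cell cannot be told apart. Over all genes tested 4.93% were called higher and 16.5% lower, 21.4% in all. Of the 49, 46 lay above the median signal of all genes. When only genes above that median were tested, 10 members were called higher and 12 lower, against 11.5% and 34% of those genes. The median change was -0.005 for the 49 and -0.06 for all genes. At least 2-fold changes among the called were 1 rise and 4 falls, where all genes gave 0.531% and 4.4%. The 3 calactin arrays all lay above the 3 untreated arrays for 9 members and all below for 15, against 10.3% and 24.4% of all genes (34.7% together). These 24 were the 20 called genes with HDAC2, HDAC8, SIRT3 and ING1. Of 12 writers 5 rose and 3 fell, and of 8 writer-complex subunits 2 rose and 0 fell. Erasers gave 1 rise and 4 falls among 18, eraser-complex subunits 0 and 3 among 7, and readers 0 and 2 among 4. Median changes were 0.32 for writers, 0.19 for their complexes, -0.04 for erasers, -0.40 for eraser complexes and -0.43 for readers.

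**Figure D1:**
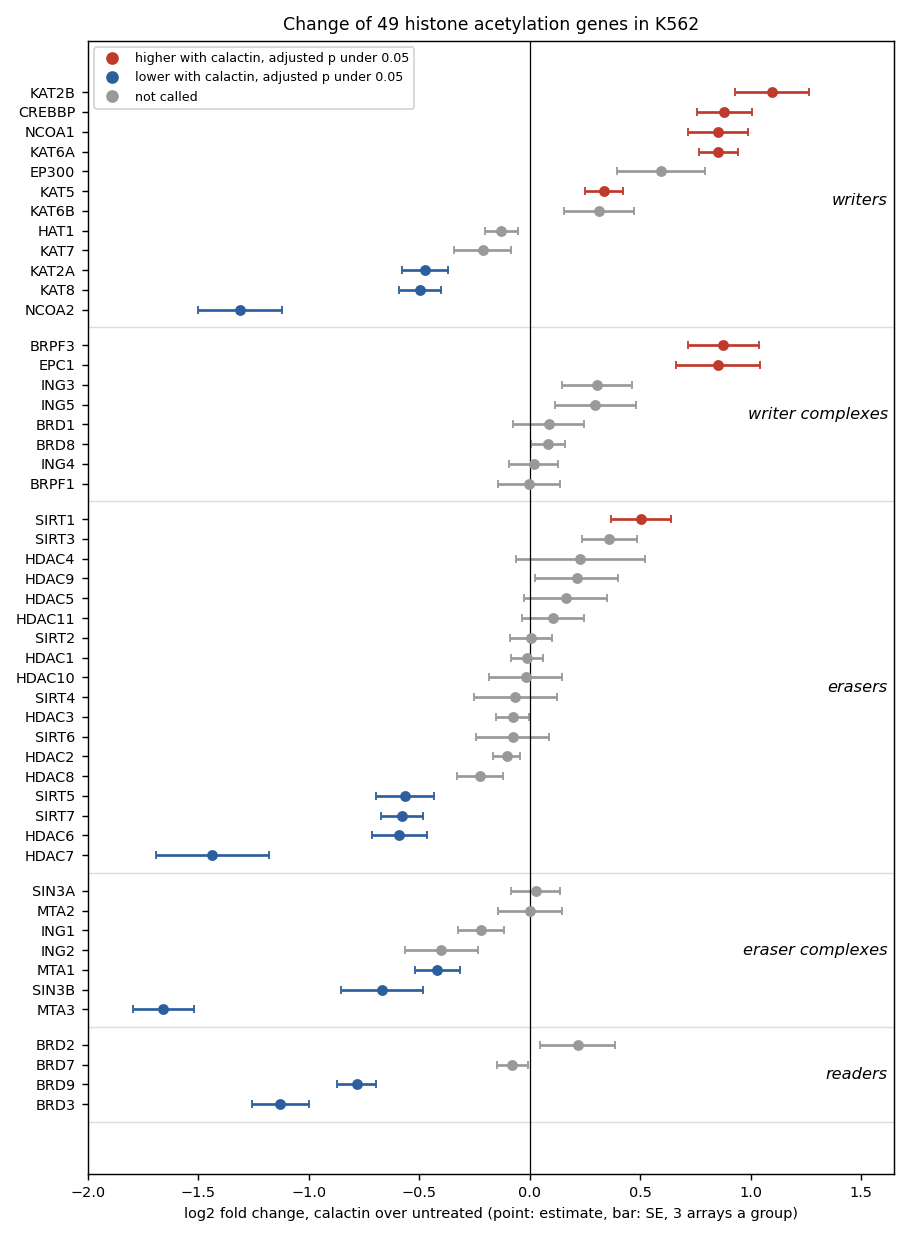
Log2 fold change of calactin over untreated for the 49 genes by role, with SE (3 arrays a group), on the deposited scale. Writers run from -1.31 (NCOA2) to 1.10 (KAT2B). No eraser-complex subunit or reader was called higher here, where 4.93% of all genes were. BRD2 was called higher with the replicate block alone, and BRD2, BRD7, SIN3A and MTA2 were with poly-A spikes. Under poly-A spike scaling with the replicate block the called KAT2A, KAT8 and MTA1 changed sign, where the all-gene median was itself at 0.47.

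Among the writers, the GNAT enzymes KAT2B and KAT2A, alternative catalytic subunits of the SAGA and ATAC complexes, changed in opposite directions. KAT2B, also known as PCAF, gave 721, 1046 and 708 intensity units with calactin, against 322, 425 and 373 untreated. Every calactin value was above every untreated one, and the gene rose 2.14-fold (1.10 ± 0.17 on the log2 scale, SE, n = 3 each; limma adjusted p = 0.0018). KAT2A, or GCN5, gave 319, 283 and 328 units with calactin, against 453, 440 and 416 untreated. It fell 1.39-fold (-0.47 ± 0.11; limma adjusted p = 0.0123), although poly-A spike scaling turned its sign to 0.06. The KAT2A call was lost without calactin replicate 2 (limma adjusted p = 0.0503; range over the alternatives 0.0055 to 0.744), in replicates 1 and 2 alone, under quantile normalization, where the change was -0.28, and under median centring and hybridisation spike scaling. HAT1, which acetylates newly made histone H4, was not called at -0.13 ± 0.08. The 250 bases before the RefSeq start of both GNAT genes (GRCh38.p14) are shown because these related genes moved apart. Capitals mark matches to 9 short motifs searched on both strands, namely the TATA box TATAAA, the CCAAT box, the GC box GGGCGG, the E-box CACGTG, the cyclic AMP element TGACGTCA, the ETS core CCGGAAG, the NRF1 site, the YY1 core AAGATGGC and the AP-1 site TGANTCA. The KAT2B window (chr3:20040196-20040445, plus strand) held 3 GC boxes, a motif found in 56.3% of the promoters of all genes tested, and 80.8% of its bases were G or C. No match to the 9 motifs lay in the KAT2A window (chr17:42121368-42121617, minus strand), where 58.8% of the bases were G or C.
KAT2B: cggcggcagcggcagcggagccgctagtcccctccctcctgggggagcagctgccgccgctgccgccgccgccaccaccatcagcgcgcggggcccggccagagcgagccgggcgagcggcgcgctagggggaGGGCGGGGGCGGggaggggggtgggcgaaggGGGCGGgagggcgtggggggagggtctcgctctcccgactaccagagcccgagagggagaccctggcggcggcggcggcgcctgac
KAT2A: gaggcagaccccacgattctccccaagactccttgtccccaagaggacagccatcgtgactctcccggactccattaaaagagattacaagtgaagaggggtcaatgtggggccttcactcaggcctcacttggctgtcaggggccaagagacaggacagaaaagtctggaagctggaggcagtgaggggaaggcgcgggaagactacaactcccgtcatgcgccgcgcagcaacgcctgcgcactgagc

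Of the MYST acetyltransferases, KAT6A and KAT5 rose and KAT8 fell. KAT6A encodes MOZ, a partner in acute myeloid leukaemia fusions, and stood at 2024, 1704 and 1857 units with calactin, against 1012, 979 and 1077 untreated. These groups were far apart, and the rise of 1.80-fold (0.85 ± 0.09; limma adjusted p = 2.89e-04) was called in 19 of 19 alternatives. KAT5, the TIP60 enzyme of the DNA damage response, gave 699, 747 and 758 units with calactin, against 587, 595 and 553 untreated. Its rise was small, 1.26-fold (0.34 ± 0.09; limma adjusted p = 0.0243), but the groups did not overlap and both other KAT5 probe sets were called higher. None of the 3 KAT5 probe sets was of unshared sequence. Dropping calactin replicate 2, calactin replicate 3 or untreated replicate 3 ended the KAT5 call (limma adjusted p = 0.0841, 0.0943 and 0.0802; range over the alternatives 8.46e-08 to 0.255). It also ended in replicates 1 and 2 alone, with hybridisation spike scaling and in eBayes without a trend. KAT8, also called MOF, the main enzyme for lysine 16 of histone H4, gave 816, 714 and 765 units with calactin, against 1127, 998 and 1138 untreated. Its fall of 1.41-fold (-0.50 ± 0.09; limma adjusted p = 0.00509) turned to 0.04 under poly-A spike scaling. The mean of the 2 KAT8 probe sets was at -0.21, and the other probe set, whose groups overlapped, was at 0.07, with no call in either case. The call was also lost in replicates 1 and 2 alone and under hybridisation spike scaling. KAT6B, the close relative of KAT6A, and KAT7, the HBO1 enzyme, were not called at 0.31 ± 0.16 and -0.21 ± 0.13. KAT6B gave 377, 263 and 344 units with calactin and 230, 251 and 298 untreated, with overlap between the groups.

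CREBBP and EP300 encode CBP and p300, paired coactivators that acetylate enhancers. CREBBP gave 948, 1012 and 968 units with calactin, against 440, 615 and 528 untreated. It rose 1.84-fold (0.88 ± 0.12; limma adjusted p = 0.00118) and was called in 19 of 19 alternatives, although the mean of its 4 probe sets was at 0.48. A second CREBBP probe set was called higher at 1.57 ± 0.28. The others went the other way, at -0.43 and -0.11 with no call, and stayed at or below 36.7 units on every array. EP300 gave 766, 822 and 941 units with calactin, against 464, 791 and 457 untreated. Untreated replicate 2 lay within the calactin range, and EP300 was not called at 0.59 ± 0.20 (limma adjusted p = 0.07). EP300 was called in 8 of 19 alternatives. With the replicate block its limma adjusted p was 0.0354, and without untreated replicate 2 it was at 0.85 (limma adjusted p = 0.00208; range over the alternatives 1.4e-12 to 0.47). The second EP300 probe set, with 357, 335 and 371 units with calactin and 165, 276 and 166 untreated, was called at 0.80 ± 0.19 when every probe set was tested on its own (limma adjusted p = 0.0199). The CREBBP window (chr16:3880714-3880963, minus strand) is shown as the promoter of a writer that was called throughout, and its capitals are 3 GC boxes, a pair of them overlapping.
CREBBP: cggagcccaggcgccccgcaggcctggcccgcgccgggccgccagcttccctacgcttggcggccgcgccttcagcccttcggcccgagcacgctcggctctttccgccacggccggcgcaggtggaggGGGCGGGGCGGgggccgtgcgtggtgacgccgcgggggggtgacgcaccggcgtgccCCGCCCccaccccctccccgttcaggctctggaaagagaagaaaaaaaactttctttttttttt

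The p160 coactivators, which carry CBP and p300 to nuclear receptors, went apart as well. NCOA1 gave 586, 773 and 679 units with calactin, against 338, 427 and 341 untreated, and rose 1.81-fold (0.85 ± 0.14; limma adjusted p = 0.0023). All 3 other NCOA1 probe sets were called higher, at 0.54 to 0.82, with those of unshared sequence at 0.54 and 0.72. The NCOA1 call was lost in replicates 1 and 2 alone. NCOA2 gave 44.1, 44.2 and 45.7 units with calactin, against 115, 117 and 180 untreated. The calactin arrays were almost equal and all far below the untreated ones, and the fall of 2.48-fold (-1.31 ± 0.19; limma adjusted p = 0.00135) was -0.87 with a pseudocount of 64. None of the other NCOA2 probe sets was called, and the mean of all 4 was at -0.42 with no call (limma adjusted p = 0.0641; range over the alternatives 8.41e-05 to 0.0641).

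Of the subunits that anchor writers, BRPF3 and EPC1 rose. BRPF3 is a scaffold that directs HBO1 to histone H3, and it gave 403, 377 and 423 units with calactin, against 166, 264 and 215 untreated. The groups were apart, with a rise of 1.83-fold (0.87 ± 0.16; limma adjusted p = 0.00463). Neither of the other BRPF3 probe sets was called, at 0.08 and -0.16, and the call was lost with the mean of the probe sets (0.26), with the probe set of unshared sequence taken first (-0.16) and in replicates 1 and 2 alone. EPC1, a scaffold of the TIP60 complex, gave 1294, 1305 and 1433 units with calactin, against 566, 1034 and 682 untreated, a rise of 1.80-fold (0.85 ± 0.19; limma adjusted p = 0.0121). The EPC1 call was lost without calactin replicate 3 or untreated replicate 3 (limma adjusted p = 0.0564 and 0.0648; range over the alternatives 8.63e-19 to 0.246) and in replicates 1 and 2 alone. Its other probe sets were at 0.05, 0.79 and -0.52 with no call, so the call was lost with the probe set of unshared sequence first (0.79) and with the mean of the 4 (0.29). The relatives BRPF1 and BRD1, which serve MOZ and HBO1, were at -0.005 ± 0.14 and 0.09 ± 0.16. BRD8 and ING3, further TIP60 subunits, were at 0.08 ± 0.08 and 0.30 ± 0.16. With the replicate block ING3 was called (limma adjusted p = 0.0277), as it was without untreated replicate 2, at 0.48 (limma adjusted p = 0.026; range over the alternatives 2.44e-07 to 0.85). ING4 and ING5, subunits of the HBO1 and MOZ complexes that bind methylated histone H3, were at 0.02 ± 0.11 and 0.30 ± 0.18.

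**Figure D2:**
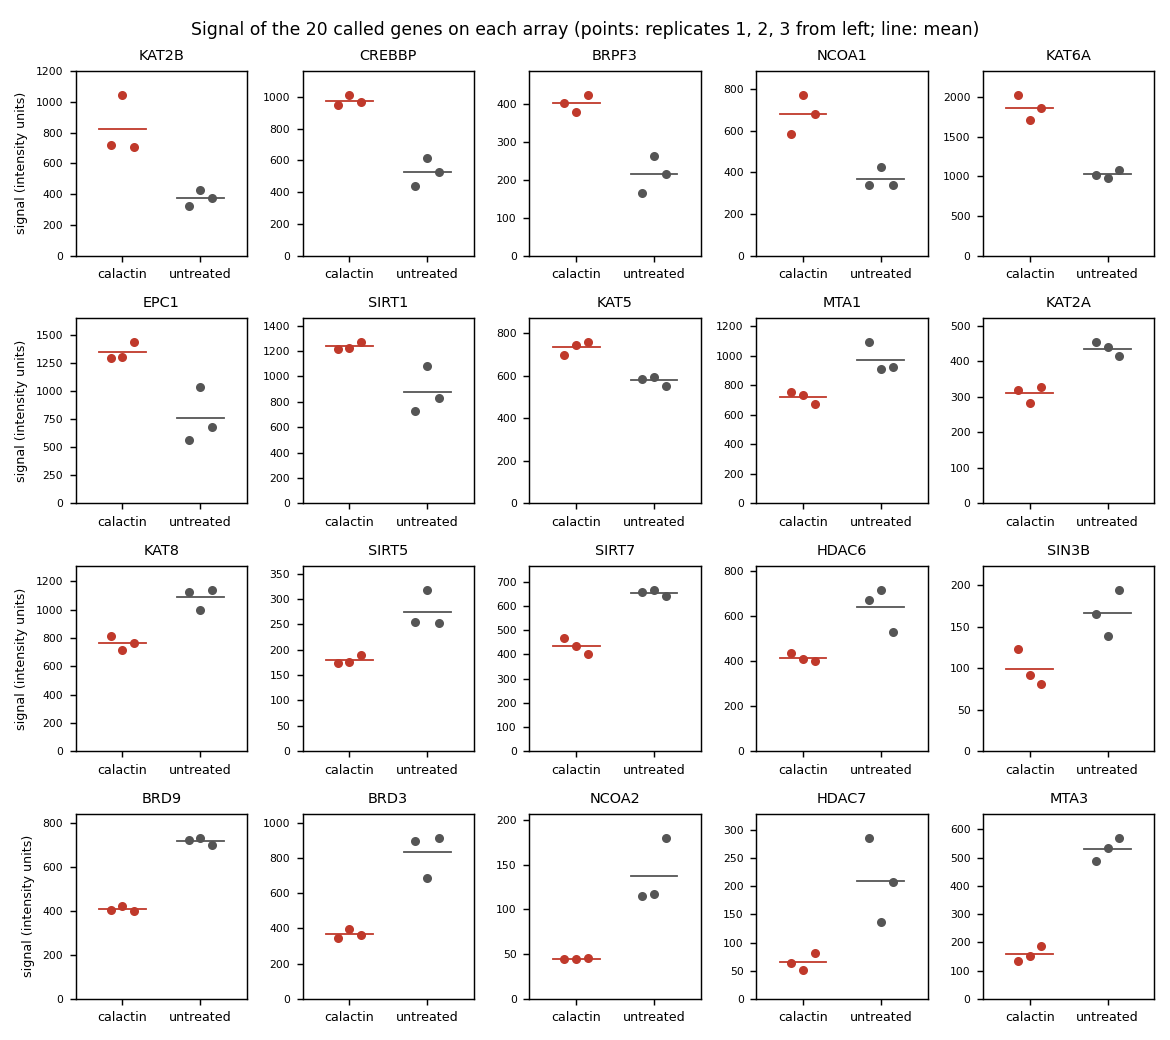
Signal in intensity units (linear axes from 0) of the 20 called genes on each array, calactin left and untreated right, with the group mean as a line. The groups do not overlap for any of the 20, and the highest untreated arrays of EPC1 and SIRT1, at 1034 and 1083, come near their calactin arrays.

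Among the genes that rose, untreated replicate 2 was the highest untreated array for 7 of 8, all but KAT6A. Over all genes called higher it was the highest untreated array for 50.6%, and over all genes tested for 33%. This count was made after the values were seen.

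Class I deacetylases, which include the catalytic subunits of the NuRD, SIN3 and NCoR complexes, gave no call. HDAC1 was at 2984, 2939 and 3390 units with calactin and at 3074, 3164 and 3132 untreated, a change of -0.01 ± 0.07, and HDAC3 was at -0.08 ± 0.07. HDAC2 gave 2925, 2957 and 3031 units with calactin, all below the 3146, 3155 and 3288 of untreated arrays, a gap of only -0.10 ± 0.06 (limma adjusted p = 0.3). HDAC8, at 366, 331 and 329 units with calactin and 433, 381 and 393 untreated, also did not overlap between groups, at -0.23 ± 0.11 (limma adjusted p = 0.193). Of the 2 other HDAC8 probe sets 1 was called lower on its own, at -0.53 ± 0.14 (limma adjusted p = 0.0366), and the mean of the 3 was called at -0.50 (limma adjusted p = 0.00601; range over the alternatives 0.00601 to 0.897).

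HDAC7 and HDAC6 fell among the other zinc-dependent deacetylases. HDAC7, a class IIa corepressor that works through MEF2 factors, gave 63.0, 51.7 and 81.1 units with calactin, against 286, 136 and 208 untreated. The untreated arrays differed among themselves, but all lay above the calactin arrays, and the fall was 2.71-fold (-1.44 ± 0.26; limma adjusted p = 0.00386). Only 1 of its 2 probe sets fell: the other gave 38.2, 36.5 and 27.4 units with calactin and 28.7, 17.7 and 22.7 untreated, at 0.36 ± 0.19 with no call. The mean of both was not called at -0.54, nor was the gene in replicates 1 and 2 alone. HDAC6, a class IIb enzyme of the cytoplasm that deacetylates tubulin, gave 436, 407 and 401 units with calactin, against 668, 714 and 529 untreated. Its fall was 1.51-fold (-0.59 ± 0.13; limma adjusted p = 0.00938), but the mean of its 3 probe sets was at -0.22 and poly-A spike scaling gave -0.06, both with no call, and the call was lost under quantile normalization and hybridisation spike scaling too. HDAC4, HDAC5 and HDAC9, the remaining class IIa genes, were at 0.23 ± 0.29, 0.16 ± 0.19 and 0.21 ± 0.19. HDAC9 stayed below the array median on every array, at 10.9 to 23.9 units with calactin and 9.54 to 16.4 untreated. HDAC10 and HDAC11 were at -0.02 ± 0.16 and 0.10 ± 0.14.

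The sirtuins, deacylases that consume NAD, gave 1 rise and 2 falls among 7. SIRT1, the nuclear member that deacetylates histones and p53, was at 1219, 1225 and 1268 units with calactin, against 726, 1083 and 833 untreated. It rose 1.42-fold (0.50 ± 0.14; limma adjusted p = 0.0285), with a call in 11 of 19 alternatives. The SIRT1 call ended when calactin replicate 1, 2 or 3, or untreated replicate 1 or 3, was dropped, where limma adjusted p-values ran from 0.0782 to 0.108 (range over the alternatives 8.35e-11 to 0.255). It ended too with hybridisation spike scaling, in replicates 1 and 2 alone and in eBayes without a trend. SIRT7, a nucleolar enzyme that deacetylates histone H3, gave 467, 434 and 400 units with calactin, against 658, 666 and 642 untreated. The groups were tight and apart, with a fall of 1.49-fold (-0.58 ± 0.10; limma adjusted p = 0.00274), which was -0.05 under poly-A spike scaling and lost its call there, under hybridisation spike scaling and in replicates 1 and 2 alone. SIRT5, a mitochondrial desuccinylase, gave 174, 176 and 189 units with calactin, against 254, 318 and 252 untreated, a fall of 1.48-fold (-0.56 ± 0.13; limma adjusted p = 0.0148). The SIRT5 call was lost without calactin replicate 1 or 2 (limma adjusted p = 0.0551 and 0.054; range over the alternatives 0.00418 to 0.878), under all 4 scalings, where the change was -0.36 with quantile normalization and -0.03 with poly-A spikes, in replicates 1 and 2 alone, and with the mean of its 6 probe sets, at -0.20. SIRT3, the main mitochondrial deacetylase, was at 792, 717 and 625 units with calactin, all just above the 622, 536 and 495 of untreated arrays. SIRT3 was not called at 0.36 ± 0.12 (limma adjusted p = 0.0756), but was in 6 of 19 alternatives, among them quantile normalization (0.51), median centring (0.50), poly-A spike scaling (0.89), and genes above the median signal. It was also called with the replicate block (limma adjusted p = 0.00709) and without untreated replicate 1 (0.45, limma adjusted p = 0.049; range over the alternatives 3.86e-08 to 0.952). Both other SIRT3 probe sets went the other way, at -0.23 and -0.17 with no call, and the mean of the 3 was at -0.014. SIRT2, SIRT4 and SIRT6 were at 0.005 ± 0.09, -0.07 ± 0.19 and -0.08 ± 0.16. The other SIRT6 probe set was called higher on its own, at 0.52 ± 0.13 (limma adjusted p = 0.0255), with 282, 302 and 347 units with calactin and 214, 234 and 185 untreated.

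In the eraser complexes, MTA3, MTA1 and SIN3B fell. MTA3, a subunit of the nucleosome remodelling and deacetylase complex NuRD, gave 135, 153 and 187 units with calactin, against 488, 535 and 570 untreated. This was the largest change of the 49, a fall of 3.16-fold (-1.66 ± 0.14; limma adjusted p = 1.24e-04). It was called in 18 of 19 alternatives, all but the one that takes probe sets of unshared sequence first, where a probe set at or below 15.6 units on every array was at -0.19, and the mean of both probe sets was at -0.93. MTA1, an alternative NuRD subunit, gave 756, 732 and 675 units with calactin, against 1089, 907 and 920 untreated. Its fall was 1.34-fold (-0.42 ± 0.10; limma adjusted p = 0.0171), and its sign turned to 0.11 under poly-A spike scaling. The MTA1 call was lost without calactin replicate 2 or 3 (limma adjusted p = 0.0533 and 0.0751; range over the alternatives 0.00407 to 0.495), in replicates 1 and 2 alone, with the mean of its probe sets and under all 4 scalings, at -0.28 with quantile normalization and -0.27 with median centring. MTA2 gave 60.8, 57.7 and 56.0 units with calactin and 56.9, 58.3 and 59.2 untreated, a change of 0.0003 ± 0.14.

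SIN3B, a scaffold that tethers class I deacetylases, gave 123, 92.0 and 81.4 units with calactin, against 166, 138 and 194 untreated, a fall of 1.59-fold (-0.67 ± 0.18; limma adjusted p = 0.0315). It was called in 9 of 19 alternatives. Dropping calactin replicate 2 or 3, or untreated replicate 1 or 3, ended the SIN3B call (limma adjusted p = 0.105, 0.117, 0.0875 and 0.129; range over the alternatives 0.00688 to 0.655). So did all 4 scalings, at -0.14 with poly-A spikes, replicates 1 and 2 alone, and the mean of its 3 probe sets, at -0.12. SIN3A, its paralogue, gave 495, 492 and 486 units with calactin and 502, 418 and 534 untreated, at 0.03 ± 0.11. ING1 and ING2, which guide SIN3 complexes to methylated histone H3, were at -0.22 ± 0.10 and -0.40 ± 0.17. The ING1 groups did not overlap, at 353, 388 and 418 units with calactin and 437, 456 and 463 untreated. ING2 was called lower with the replicate block (limma adjusted p = 0.0323) and without untreated replicate 1, at -0.57 (limma adjusted p = 0.0332; range over the alternatives 0.0323 to 0.563). The MTA3 window (chr2:42493860-42494109, plus strand) is shown for the gene with the largest fall, at the first of its RefSeq starts, and its capitals are 4 GC boxes.
MTA3: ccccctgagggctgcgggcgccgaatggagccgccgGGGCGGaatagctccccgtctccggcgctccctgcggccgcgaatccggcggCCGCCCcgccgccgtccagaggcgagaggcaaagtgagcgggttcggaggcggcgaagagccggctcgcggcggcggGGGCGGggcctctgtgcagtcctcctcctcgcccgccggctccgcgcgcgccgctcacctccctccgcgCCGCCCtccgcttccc

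Among the 4 readers BRD3 and BRD9 fell. BRD3, a BET protein that binds acetylated histones and transcription factors such as GATA1, gave 347, 399 and 362 units with calactin, against 898, 688 and 915 untreated. The fall was 2.19-fold (-1.13 ± 0.13; limma adjusted p = 4.34e-04) and was called in 19 of 19 alternatives, at -0.60 under poly-A spike scaling and -0.55 with the mean of its 3 probe sets. A second BRD3 probe set was called lower at -0.70 ± 0.14, while the third, at 32.5 to 53.6 units with calactin and 30.3 to 37.3 untreated, was at 0.19 with no call. BRD9, the bromodomain subunit of a non-canonical SWI/SNF remodeller, gave 405, 422 and 401 units with calactin, against 722, 732 and 697 untreated. The arrays of each group lay close together, with a fall of 1.72-fold (-0.78 ± 0.09; limma adjusted p = 3.99e-04) that lost its call in 1 of 19 alternatives, at -0.25 under poly-A spike scaling. BRD2, another BET protein, was not called at 0.22 ± 0.17, though it was with the replicate block (limma adjusted p = 0.0342; range over the alternatives 8.56e-06 to 0.869). It gave 1608, 2093 and 1445 units with calactin and 1462, 1778 and 1188 untreated, with overlap. BRD7, of the PBAF remodeller, was at -0.08 ± 0.07, with 1788, 1783 and 1929 units with calactin and 1969, 1913 and 1926 untreated. The BRD3 window (chr9:134068027-134068276, minus strand) is shown as the promoter of the reader that was called throughout, and 86.8% of its bases were G or C, with 6 GC boxes in capitals, a pair of them overlapping.
BRD3: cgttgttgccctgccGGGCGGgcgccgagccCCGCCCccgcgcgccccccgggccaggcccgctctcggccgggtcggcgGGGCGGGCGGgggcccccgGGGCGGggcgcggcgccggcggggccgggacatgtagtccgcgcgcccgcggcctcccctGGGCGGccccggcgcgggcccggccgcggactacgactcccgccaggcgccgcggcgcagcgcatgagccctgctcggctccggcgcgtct

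**Figure D3:**
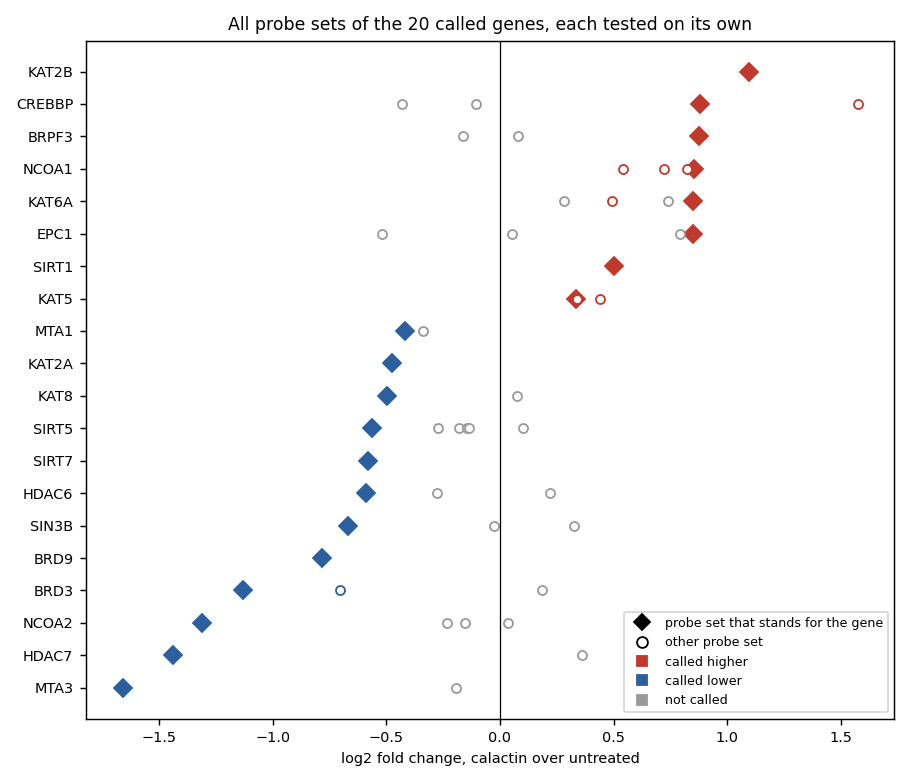
Log2 fold change (calactin over untreated) of every probe set of the 20 called genes, each tested on its own with limma over 41091 probe sets. Diamonds are the probe sets that stand for the gene. Of the genes with several probe sets, NCOA1, KAT5, KAT6A, MTA1 and MTA3 have all of them on the called side. The rest, HDAC7 and KAT8 among them, also have a probe set on the other side of 0.

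The probe sets of 1 gene could differ. Of the 20 called genes, 5 had 1 probe set, and for 5 of the other 15 a further probe set was called the same way when tested on its own. These were CREBBP, NCOA1, KAT5, KAT6A and BRD3. None of the 34 further probe sets was called the opposite way, 8 were called the same way, 23 had the same sign, and for 10 genes no other probe set was called. Over all 41091 probe sets 4.53% were called higher and 12.5% lower, 17% together.

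Ratios of related genes on the same array leave out most of a factor that all genes of the array share. Of 18 pairs compared, the ratio did not overlap between groups in 11, each of which held a called gene. The share over other pairs of genes was not computed, and 34.7% of all genes did not overlap when taken singly. For the 11 pairs the exact permutation test gave its smallest possible value for 3 against 3 arrays, two-sided p = 0.1. This was 0.164 after adjustment over the 18 pairs, so none could pass 0.05. The widest gaps were NCOA1 over NCOA2, at 2.16 ± 0.28 (difference of log2 changes, SE, n = 3 each), KAT2B over KAT2A, at 1.57 ± 0.27, BRD2 over BRD3, at 1.35 ± 0.31, and MTA1 over MTA3, at 1.24 ± 0.22. BRPF1 over BRPF3 was at -0.88 ± 0.15, BRD7 over BRD9 at 0.71 ± 0.06 and SIN3A over SIN3B at 0.70 ± 0.15. KAT6A over KAT6B was at 0.54 ± 0.11, SIRT6 over SIRT7 at 0.50 ± 0.17, HDAC6 over HDAC10 at -0.57 ± 0.18 and MTA1 over MTA2 at -0.42 ± 0.10. CREBBP over EP300 overlapped, at 0.29 ± 0.18 (exact permutation p = 0.2), as did HDAC1 over HDAC2, at 0.09 ± 0.06 (exact permutation p = 0.2). The other 5 overlapping pairs, among HDAC4, HDAC5, HDAC9, BRD1, BRPF1 and the ING genes, ran from -0.28 to 0.18. The pairs share the same arrays, and some share a gene.

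**Figure D4:**
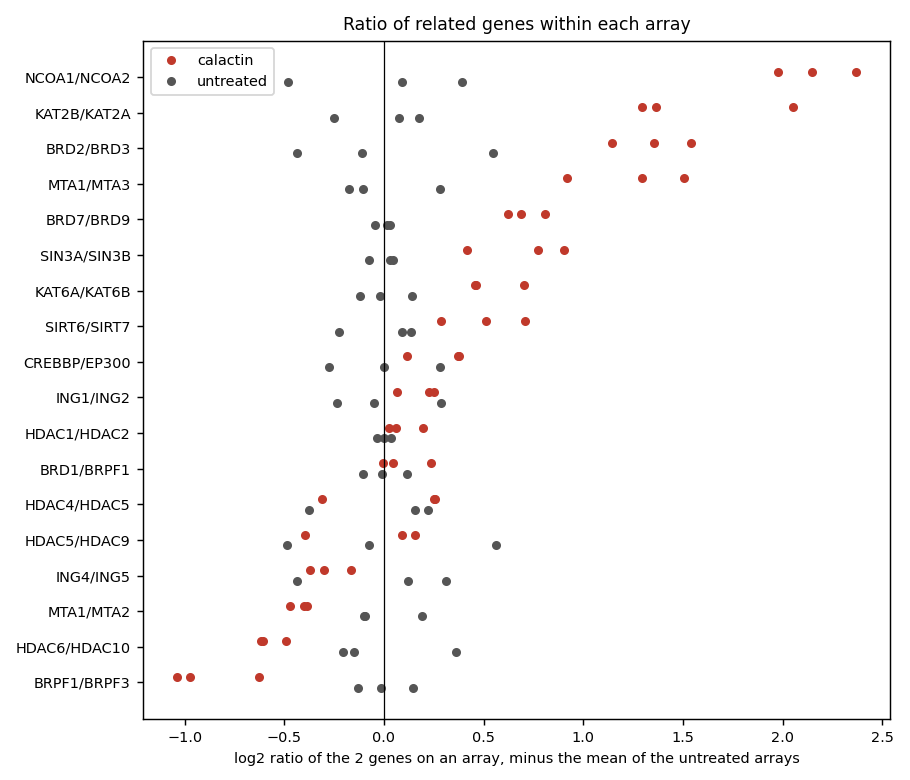
Log2 ratio of 2 related genes on each array, minus the mean of the untreated arrays, for 18 pairs. Calactin arrays (red, upper of each pair) lie apart from untreated arrays (dark grey) for 11 pairs, from NCOA1/NCOA2 at 2.16 to BRPF1/BRPF3 at -0.88. Each of the 11 holds a called gene.

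How the arrays are scaled moved the calls of small changes. Over all genes the median change shifted from -0.06 on the deposited scale to 0.02 with quantile normalization, 0.09 with median centring, 0.04 with hybridisation spike scaling and 0.47 with poly-A spike scaling and the replicate block. Members called higher and lower were 10 and 7, 10 and 8, 7 and 5, and 32 and 4 in that order. Of all genes, quantile normalization called 8.44% higher and 12.1% lower, median centring 9.2% and 11.6%, hybridisation spike scaling 3.05% and 7.4%, and poly-A spike scaling 47.5% and 5.15%. The mean of all probe sets of a gene called 7 members higher and 6 lower, against 4.03% and 14.4% of all genes. The replicate block called 12 and 13, against 7.09% and 20.2%, and replicates 1 and 2 alone called 3 and 5, against 1.68% and 7.09%. Without calactin replicate 3 or untreated replicate 3, 5 members were called higher. Of the rises, poly-A spike scaling moved all but KAT2B by over 1.5 times, with values from 0.87 (KAT5) to 1.41 (CREBBP), and it left NCOA2 at -0.78 and HDAC7 at -0.90. Taken relative to the median of all genes, all 20 called members kept their sign under quantile normalization. Median centring and both spike scalings shift all genes of an array by the same amount. They could not change a value relative to that median. With poly-A spikes KAT2A, KAT8 and MTA1 were at -0.42, -0.44 and -0.36 relative to that median.

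**Figure D5:**
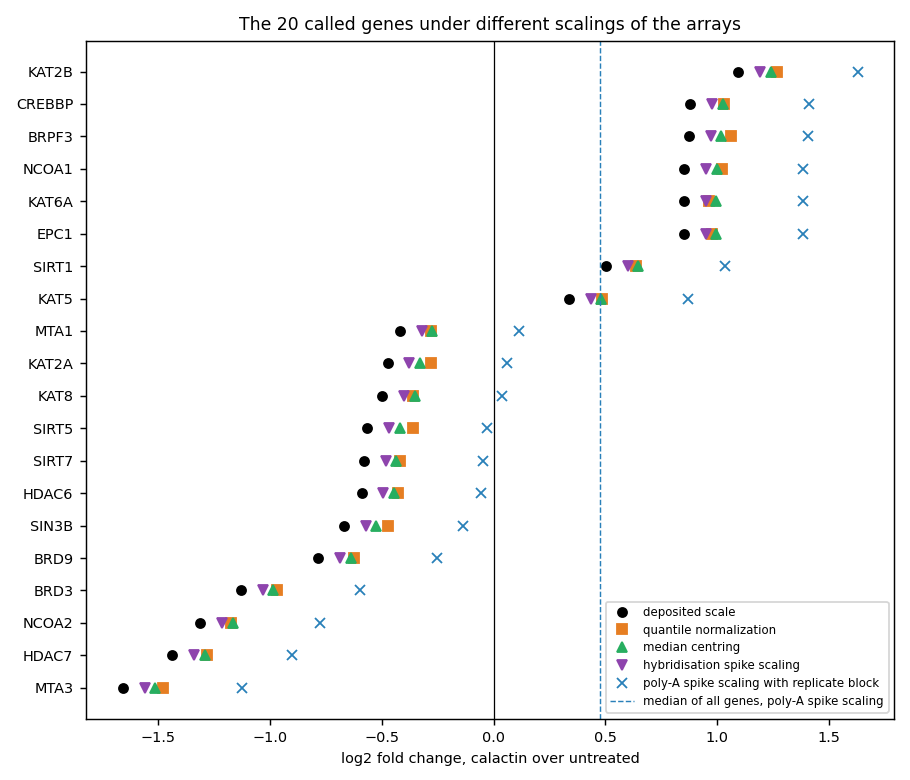
Log2 fold change (calactin over untreated) of the 20 called genes on the deposited scale and under 4 scalings. Poly-A spike scaling with the replicate block moves all genes up, with its all-gene median of 0.47 dashed. It turns KAT2A, KAT8 and MTA1 to above 0. The other genes that fell stay below 0, with only BRD3, NCOA2, HDAC7 and MTA3 still called.

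Other genes of the machinery, 114 measured of 119 listed by name, gave 15 rises and 32 falls with a median of -0.08, where 4.93% of all genes rose and 16.5% fell. With the replicate block these were 25 and 37, where 7.09% of all genes rose and 20.2% fell. Tested only among genes above the median signal, they were 18 and 36, where 11.5% of such genes rose and 34% fell. The rises were 9 without calactin replicate 1, and the falls were 21 without calactin replicate 3 and 19 without untreated replicate 3. The TIP60 and HBO1 complexes, the homes of KAT5, KAT7, EPC1 and BRPF3, had 9 falls and 0 rises among 16 further subunits, with a median of -0.32. The 9 falls became 5 without untreated replicate 3, 3 with hybridisation spikes, 1 with poly-A spikes and 3 in replicates 1 and 2 alone, and 2 rises were called without untreated replicate 2 and with the replicate block. JADE3, a scaffold of HBO1, averaged 65.9 ± 4.14 units with calactin and 201.5 ± 24.8 untreated (SD, n = 3 each) and fell 2.65-fold, or by 0.87 on the log2 scale with poly-A spikes. RUVBL1, an ATPase of TIP60 and other complexes, averaged 1404 ± 68.3 with calactin and 2531 ± 309 untreated, and with poly-A spikes it was at -0.30 with no call.

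Of 20 SAGA and ATAC subunits 2 rose and 4 fell (median -0.07). The 2 rises became 0 without calactin replicate 1, 1 without calactin replicate 3 or untreated replicate 1, 4 without untreated replicate 2, and 7 with the replicate block, while the falls became 1 with either kind of spike. YEATS2, a reader subunit of ATAC, was at -1.15 ± 0.13, at -0.62 with poly-A spikes and at -0.36 with probe sets of unshared sequence first. TADA1 was at -0.68 ± 0.10, but was not called from the mean over its probe sets (-0.14), with poly-A spikes (-0.14) or with hybridisation spikes. Among 8 subunits of the KAT8 complexes MSL and NSL, KANSL1 rose, at 0.55 ± 0.10, and 0 fell (median 0.08). KANSL1 was not called from the mean over its probe sets (-0.003) or in replicates 1 and 2 alone.

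On the erasing side, 16 further NuRD and SIN3 subunits gave 3 rises and 2 falls (median -0.02). The rises became 1 with the mean of probe sets, and the falls became 1 without calactin replicate 2, calactin replicate 3 or untreated replicate 1, and 0 without untreated replicate 3. ARID4B, a SIN3 subunit, averaged 1359 ± 98.8 units with calactin and 592.8 ± 48.7 untreated, a rise of 1.18 ± 0.10. It was not called from the mean over its probe sets (0.31) or with probe sets of unshared sequence first (-0.01). GATAD2B, of NuRD, was at 0.84 ± 0.16, but was not called from the mean over its probe sets (0.31) or in replicates 1 and 2 alone. Of 9 NCoR and CoREST subunits 1 rose and 4 fell (median -0.22). The 4 falls became 1 without calactin replicate 2, calactin replicate 3 or untreated replicate 2, 2 without calactin replicate 1 or untreated replicate 3, and 0 or 1 under the 4 scalings. KDM1A, the demethylase of CoREST, was at -0.44 ± 0.07, a call lost with hybridisation spikes and with poly-A spikes, where it was at 0.09. PHF21A, which binds unmethylated histone H3 in CoREST, was the 1 rise, at 0.35 ± 0.09. That call ended when calactin replicate 1, 2 or 3, or untreated replicate 1 or 3, was dropped (highest limma adjusted p = 0.0819; range over the alternatives 6.77e-08 to 0.915). It also ended with the mean of its probe sets (0.17), with probe sets of unshared sequence first (0.05), with hybridisation spikes and in replicates 1 and 2 alone.

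Further bromodomain and YEATS readers gave 7 rises and 7 falls among 27 (median 0.01), and the falls became 4 with median centring or the mean of probe sets, 2 with hybridisation spikes and 1 with poly-A spikes. ZMYND8 averaged 1451 ± 69.6 units with calactin and 2615 ± 37.2 untreated, at -0.84 ± 0.07. Its call was lost with probe sets of unshared sequence first (-0.19) and with poly-A spikes (-0.31), and the mean of its probe sets was at -0.46. PHIP averaged 1238 ± 53.9 with calactin and 649.5 ± 34.8 untreated, at 0.91 ± 0.08, with the mean of its probe sets at 0.57. Of 18 genes that supply acetyl-CoA and NAD, 1 rose and 6 fell (median -0.22). Dropping any calactin array, or untreated replicate 1 or 3, ended the call of the 1 rise, and the falls became 1 with hybridisation spikes and 0 with poly-A spikes. ACSS2, which makes acetyl-CoA from acetate, was at -0.70 ± 0.10, and with poly-A spikes at -0.17 with no call. PDHA1, of pyruvate dehydrogenase, was at -0.51 ± 0.07, a call lost with hybridisation spikes and with poly-A spikes, where it was at 0.02.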

How the data were processed

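Linear intensities, deposited by the authors for 54675 probe sets on 6 arrays, were the starting point. How they were summarised, background-corrected and scaled is not given in the sources used here. RNA was isolated with Trizol and labelled with biotin as cRNA, per the labels' protocols.

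Probe sets with 1 symbol in the platform annotation (41091) were used, and the one with the highest mean log2 value stood for its gene, which left 19775 genes. Intensities were turned into log2(intensity + 16), which understates the change of dim genes. limma 3.58.1 (lmFit and trended eBayes in R 4.3.3) tested calactin against untreated arrays (two-sided), with Benjamini-Hochberg adjustment over all genes and a threshold of 0.05. Precision is limited by the number of arrays, which leaves 4 residual degrees of freedom. Related genes were compared by the exact permutation test. Plots used matplotlib 3.10.9.

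All measured members are accounted for, with array values for called members and for others that did not overlap between groups, and for some related to a called one, and from each further list up to 2 called genes, those of smallest p, are named. The members and lists were chosen with earlier results of these data known. Replicate numbers come from the titles. Deviations of same-numbered arrays from their group means correlated at 0.544, 0.409 and 0.345 over 9887 genes. The labels do not state that the numbers pair the arrays, so the main fit used no block. The replicate block was fitted as an alternative, and the permutation test did not use the numbers. Alternatives were quantile normalization, median centring, 2 spike scalings, pseudocounts of 1 and 64, genes above the median signal, other choices of probe set, eBayes without a trend, the replicate block, each array left out, and replicates 1 and 2 alone. Promoters came from RefSeq (GRCh38.p14), at the first start listed for a gene, for 43 of the 49 members.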

Additional observations from a re-analysis of the deposited data

How the results depend on the processing

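The members called higher (8) and lower (12) with calactin depended on scaling and on the probe set taken. Members called higher were 32 under poly-A spike scaling with the replicate block and 3 in replicates 1 and 2 alone, where fewer arrays were used. Leaving out 1 array in turn gave 5 to 10. Members called lower were 7 with quantile normalization, 5 with hybridisation spike scaling, 4 with poly-A spikes, 6 with the mean over probe sets and 5 in replicates 1 and 2 alone, and 8 to 12 with 1 array left out. With the replicate block alone 12 members were called higher and 13 lower, and none of the 20 calls was lost. Of the other pathway genes, those called higher (15) became 24 with quantile normalization, 24 with median centring, 63 with poly-A spikes, 9 with the mean of probe sets, 25 with the replicate block and 6 in replicates 1 and 2 alone, and 9 to 18 with 1 array left out. Those called lower (32) became 21, 18, 7 and 3 under quantile normalization, median centring, hybridisation spikes and poly-A spikes, 10 in replicates 1 and 2 alone, and 19 to 29 with 1 array left out. Apart from the settings with fewer arrays, the cause was not tested. KAT2B, KAT6A, CREBBP and BRD3 were called in every alternative run, and 13 of the 20 called members without each array in turn. The probe sets taken for these 4 genes were already of unshared sequence, so taking such probe sets first could not change their values. KAT2B has only 1 probe set, so the mean over probe sets could not change its value either. With poly-A spikes the median of all genes was itself at 0.47. Log2 changes turned sign under several settings. Those of KAT2A, KAT8, BRPF3, HDAC7, MTA1, KANSL1, ARID4B, KDM1A and PDHA1 had been called in the main fit. Those of HAT1, BRPF1, HDAC1, HDAC2, HDAC3, HDAC10, SIRT6 and BRD7 had not, and were called higher with poly-A spikes. The changes of sign are listed here by setting. Under poly-A spike scaling with the replicate block these were KAT2A at 0.059, HAT1 at 0.40, KAT7 at 0.32, KAT8 at 0.036, BRPF1 at 0.53, HDAC1 at 0.52, HDAC2 at 0.43, HDAC3 at 0.46, HDAC8 at 0.31, HDAC10 at 0.51, SIRT4 at 0.47, SIRT6 at 0.46, ING1 at 0.31, ING2 at 0.13, MTA1 at 0.11, BRD7 at 0.45, KDM1A at 0.092 and PDHA1 at 0.024. With median centring they were HAT1 at 0.016, BRPF1 at 0.14, HDAC1 at 0.13, HDAC2 at 0.041, HDAC3 at 0.068, HDAC10 at 0.13, SIRT4 at 0.079, SIRT6 at 0.067 and BRD7 at 0.067. With quantile normalization they were BRPF1 at 0.14, HDAC1 at 0.063, HDAC3 at 0.013, HDAC10 at 0.14, SIRT4 at 0.0068, SIRT6 at 0.12 and BRD7 at 0.022. With hybridisation spike scaling they were BRPF1 at 0.093, HDAC1 at 0.086, HDAC3 at 0.020, HDAC10 at 0.079, SIRT4 at 0.032, SIRT6 at 0.019 and BRD7 at 0.019. With the mean over probe sets they were ING3 at -0.061, HDAC4 at -0.018, HDAC9 at -0.0029, HDAC10 at 0.047, HDAC11 at -0.016, SIRT3 at -0.014, SIRT6 at 0.22, SIN3A at -0.17, ING1 at 0.054 and KANSL1 at -0.0033. With probe sets of unshared sequence first they were KAT8 at 0.074, BRPF3 at -0.16, HDAC7 at 0.36, HDAC10 at 0.11, ING1 at 0.14 and ARID4B at -0.012. In replicates 1 and 2 alone they were HDAC10 at 0.023, SIRT2 at -0.010 and SIRT6 at 0.0046. With a pseudocount of 64 the difference of HDAC5 and HDAC9 was 0.048. With 1 array left out, BRD1 ran from -0.054 to 0.22, BRPF1 ran from -0.092 to 0.14, ING4 ran from -0.026 to 0.073, HDAC1 ran from -0.076 to 0.026, HDAC10 ran from -0.11 to 0.10, SIRT2 ran from -0.032 to 0.045, SIRT4 ran from -0.23 to 0.050, SIRT6 ran from -0.24 to 0.028, SIN3A ran from -0.073 to 0.10 and MTA2 ran from -0.025 to 0.022. Dim probe sets such as HDAC9, SIRT4 and MTA2 limit what could be seen, and genes below the median signal gave no value under that filter. The NCOA2 and NCOA3 pair was not run.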

Other observations

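RefSeq promoters of the members were rich in G and C. Over the 250 bases before the start, the median share of G and C was 70.8% for 43 members and 62.4% for 15384 genes tested that had a promoter. Members called higher were at 72.4% (7 promoters), those called lower at 75.6% (9) and those not called at 65.6% (27). The observed over expected CpG ratio had a median of 0.84 for members and 0.74 for all.

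Motif matches, on both strands and by letters alone over the same 250 bases, are given as a description with no test. The GC box (GGGCGG) was in 27 of 43 members, against 56.3% of all promoters, in 5 of 7 called higher and in 6 of 9 called lower. CCAAT was in 11 of 43 (34.1% of all), in 1 of 7 called higher and 2 of 9 called lower. The ETS core CCGGAAG was in 10 of 43 (12% of all), 9 of them among the 27 not called. The E-box CACGTG was in 2 of 43 (7.83% of all), both among those called higher. TATAAA was in 1 (8.31% of all), the CRE TGACGTCA in 1 (2.38%), the NRF1 site in 4 (7.82%), the AP-1 site TGANTCA in 1 (5.03%) and the YY1 core AAGATGGC in 0 (1.49%).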
